A study of Mus musculus with 2 samples.

Results

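Endothelin, natriuretic peptide and nitric oxide signalling is represented here by 10 genes: the endothelin precursors Edn1, Edn2 and Edn3, their receptors Ednra and Ednrb, the converting enzyme Ece1, the natriuretic peptide receptors Npr1, Npr2 and Npr3, and the endothelial nitric oxide synthase Nos3. They were picked by gene name, and every array probe set (a group of short probes read as 1 signal) annotated to one of them was taken. Of the 10 genes, 9 had a named probe set, 18 probe sets in all, out of 18193 genes on the array that did. Ednra had no named probe set in the annotation used and was not analysed here.

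The cells were mouse A2lox.Mesp1 embryonic stem cells on a 129/Ola background, in which dox (doxycycline) turns on a transgene for Mesp1, a transcription factor of early mesoderm. They were differentiated as embryoid bodies, and on day 5 the fraction carrying both Flk1 and Tie2, the receptor proteins of endothelial cells encoded by Kdr and Tek, was sorted. The untreated group is 1 array of cells that never received dox, and the dox group is 1 array of cells given 250 ng/mL of dox from day 2, with day 4 as its end by the study's design text. Both groups carry the transgene, and no dox-treated cells without it were used here, so a response to dox itself and a response to Mesp1 cannot be told apart. Each condition is a single array, so no test could be run and no p-value is given, and each difference describes these 2 samples.

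Endothelins are made as long precursors that are trimmed first by furin-type proteases and then by endothelin-converting enzyme. The short peptide constricts vessels mainly through Ednra on smooth muscle, while Ednrb on endothelium clears it and stimulates nitric oxide release. Atrial and brain natriuretic peptides act on Npr1 and C-type natriuretic peptide on Npr2, which are receptors with guanylyl cyclase activity, whereas Npr3 has no cyclase domain, removes the peptides and is a marker of endocardium. Nitric oxide from Nos3 activates a separate, soluble guanylyl cyclase, so both branches meet at cyclic GMP.

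By their brightest probe sets, Npr3 and Edn1 read at least 2-fold higher in dox cells, Ece1 and Npr2 were higher by less than that, and Ednrb and Nos3 hardly differed. Edn2, Edn3 and Npr1 gave dim signals that were lower with dox, all within 2-fold. Of the 9 measured genes, 2 were thus 2-fold or more higher and 0 were 2-fold or more lower, beside 4.77% and 2.04% of all 18193 genes with a named probe set. Only 7 of the 9 passed the signal filter, which asks that either of the 2 signals reach the median of its array (112 without dox, 127 with dox). Npr3 passed it through the dox array alone and Edn3 through the untreated array alone, so the filter itself selects for a difference in those genes. The same 2 of 7 were higher, beside 5.69% higher and 2.06% lower of 11794 genes past the filter. Dim genes crossed 2-fold more often than bright ones. Of genes past the filter with a mean signal under 500, the class of Npr3, 8.56% were higher and 2.98% lower. Of those with a mean signal of 500 or more, the class of Edn1, 4.3% were higher and 1.61% lower.

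The scale of the values matters for small differences. Signals were compared as log2(signal + 16), dox minus no dox, and folds were taken from those differences, so the added 16 damps the folds of dim genes. The median difference of all genes past the filter was 0.05. Dividing each array by its median signal moved it to -0.13, a shift that reaches every gene, and turned the split of genes past 2-fold from 671 higher and 243 lower (73.4% higher) into 529 and 402 (56.8%). The middle 95% of genes past the filter lay between -0.93 and 1.74. Probe sets of 1 gene disagreed with an SD of 0.48 where the mean signal was under 500 and of 0.26 where it was 500 or more. That SD covers probe effects and array noise, not variation between cultures.

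Promoter windows of the most different members, Edn1 and Npr3, and of the evenly expressed Ednrb are shown because Edn1 and Npr3 were the members past 2-fold and Ednrb lay at the middle of the members' differences. Each window runs from 250 bases before to 50 bases after the annotated start in RefSeq (GRCm38.p6), 5′ to 3′ on the gene's own strand. The table held such windows for 9 of the 10 genes, and the missing one is Nos3. Capitals mark the E-box CANNTG, the motif bound by basic helix-loop-helix factors, the class of Mesp1, and the letters GATA, the core bound by GATA factors, each searched on both strands. In some windows the motifs overlap themselves (GATATC holds GATA on both strands), but not in those printed here. Of 32851 windows of this length, 72.3% held an E-box and 57.9% held GATA. The Edn1 window (chr13:42301226-42301525, plus strand) comes first, then those of Npr3 (chr15:11907322-11907621, minus strand) and Ednrb (chr14:103843652-103843951, minus strand).
Edn1: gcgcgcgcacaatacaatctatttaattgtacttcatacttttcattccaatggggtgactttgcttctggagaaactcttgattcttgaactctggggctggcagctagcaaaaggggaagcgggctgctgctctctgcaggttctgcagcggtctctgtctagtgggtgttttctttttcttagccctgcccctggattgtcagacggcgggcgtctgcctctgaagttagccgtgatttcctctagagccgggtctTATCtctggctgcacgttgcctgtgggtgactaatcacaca
Npr3: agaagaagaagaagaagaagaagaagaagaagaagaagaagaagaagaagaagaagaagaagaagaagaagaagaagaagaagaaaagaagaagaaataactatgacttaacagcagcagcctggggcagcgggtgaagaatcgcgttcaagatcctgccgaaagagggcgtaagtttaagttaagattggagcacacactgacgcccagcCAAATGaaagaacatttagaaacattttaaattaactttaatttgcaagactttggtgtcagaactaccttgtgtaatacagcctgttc
Ednrb: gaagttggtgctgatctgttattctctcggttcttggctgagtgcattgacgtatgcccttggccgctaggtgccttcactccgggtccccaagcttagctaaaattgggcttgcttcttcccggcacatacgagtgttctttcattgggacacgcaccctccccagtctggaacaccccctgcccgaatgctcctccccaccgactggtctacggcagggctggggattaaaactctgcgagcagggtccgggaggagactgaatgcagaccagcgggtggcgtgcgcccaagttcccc

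The Edn1 window held 0 E-boxes and 1 GATA core, on its minus strand from base 10 to base 13 after the start. The Npr3 window held 1 E-box, from base -39 to base -34, and no GATA core, and its far end is a run of 28 GAA repeats. The Ednrb window held neither motif. A GC content of 39.0% set the Npr3 window below those of Edn1 (51.3%) and Ednrb (58.7%). These matches are letters in a window and were not tested for binding.

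**Figure D1:**
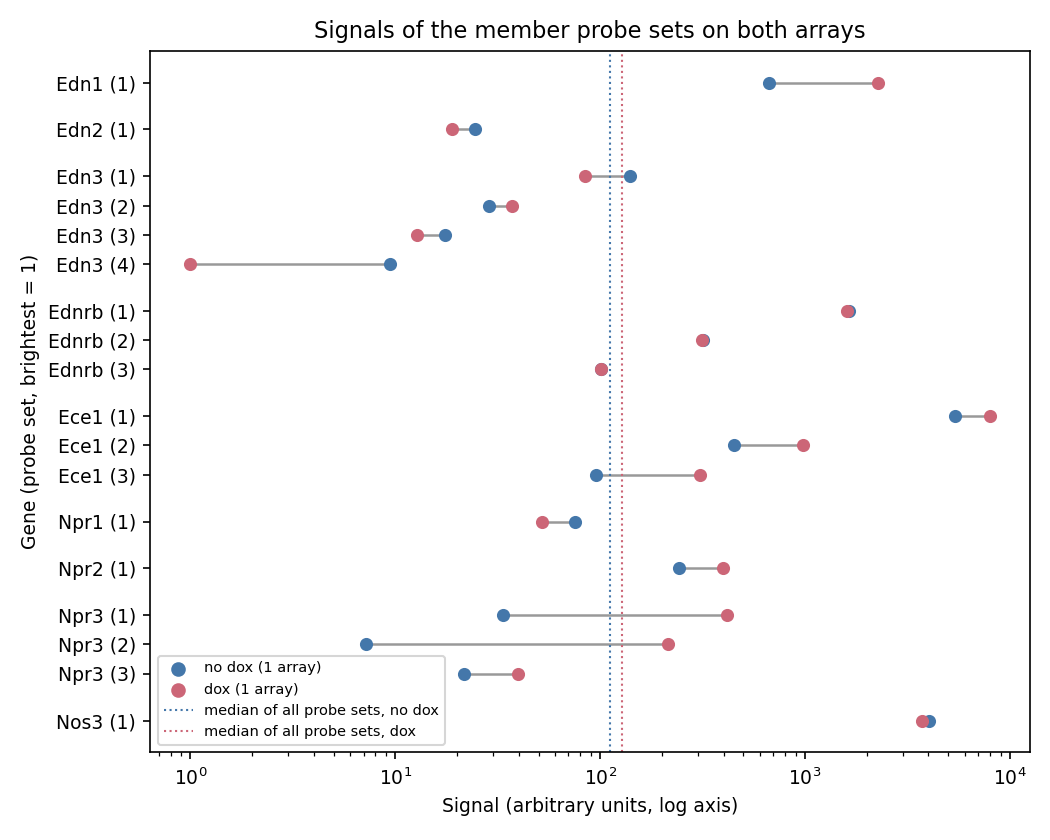
Signal of every probe set of the 9 measured genes on the untreated (blue) and dox (red) array, in arbitrary units on a log axis, with dotted lines at the array medians of 112 and 127. Edn1 and the 2 upper Npr3 probe sets show long lines towards red on the right, all 3 Ece1 probe sets lie further right with dox, and the points of all 3 Ednrb probe sets nearly coincide.

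Among the ligands, Edn1, the main endothelin of endothelium, stood apart from its paralogues. Its only probe set read 668 in untreated cells and 2279 after dox, both well above the array medians. This is 3.35-fold higher (log2 difference 1.75), and 294 of the genes past the filter, or 2.49%, had a larger difference. The value was 1.57 after scaling by the array medians and 1.67 after quantile normalization. Because 1 probe set measured Edn1, no second reading of the gene on these arrays can be set beside it.

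Edn2, a paralogue with the same receptors, had signals of 24.5 and 19.0 without and with dox. Both lie below the array medians, and the log2 difference was -0.21. Edn3, the endothelin that acts on Ednrb in neural crest development, had its brightest probe set at 140 and 84.4 (log2 difference -0.64). That probe set has the suffix _x_at and was the only Edn3 probe set past the filter. Without probe sets of suffix _x_at or _s_at, Edn3 came to -0.21 and fell below the filter. The other Edn3 probe sets gave 28.6 and 37.2 (0.25), 17.4 and 12.8 (-0.21), and 9.43 and 1 (-0.58), the last at the floor of the table. Thus 3 of 4 Edn3 probe sets were lower and 1 higher, none by 2-fold. With signals raised to the higher of the array medians wherever they fell below it, Edn2 gave 0 and Edn3 -0.12, so neither difference is measured clear of the dim range.

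Ednrb, the only endothelin receptor measured, was even. Its probe sets had signals of 1634 and 1598, 317 and 314, and 100 and 101 without and with dox. The log2 differences were -0.031, -0.011 and 0.0070, each smaller in size than the SD of either signal class. Scaling by the array medians moved the brightest to -0.21, by about as much as it moved the median of all genes. Genes of neural crest, the other lineage known for Ednrb, were listed as markers: 6 of 8 were measured, 4 passed the filter and 0 of these were 2-fold different. With 5.69% higher and 2.06% lower of all genes past the filter, this is near the background. The summed signal of the measured neural crest genes was 1497 without dox and 1144 with dox. Sox10, a factor of neural crest, came to -0.98 (578 and 286) and Tfap2a to 0.72, by their brightest probe sets. The other Sox10 probe sets lay at or near the floor (1 and 2.22, 1 and 1.51), and those of Tfap2a gave 0.42 and -0.53.

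Ece1, which cuts big endothelin to the active peptide, was higher on each of its 3 probe sets. The brightest read 5401 in untreated cells and 7965 after dox, 1.47-fold higher (log2 difference 0.56). The next had 451 and 972, 2.12-fold higher (1.08), and the dimmest 95.1 and 308, 2.91-fold higher (1.54). The direction is shared, but the size is not, since only the dimmer probe sets passed 2-fold and the mean over all 3 was 1.06. RefSeq lists 4 promoter windows for Ece1, the only member with more than 1. Which of its transcripts each probe set reads was not tested.

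**Figure D2:**
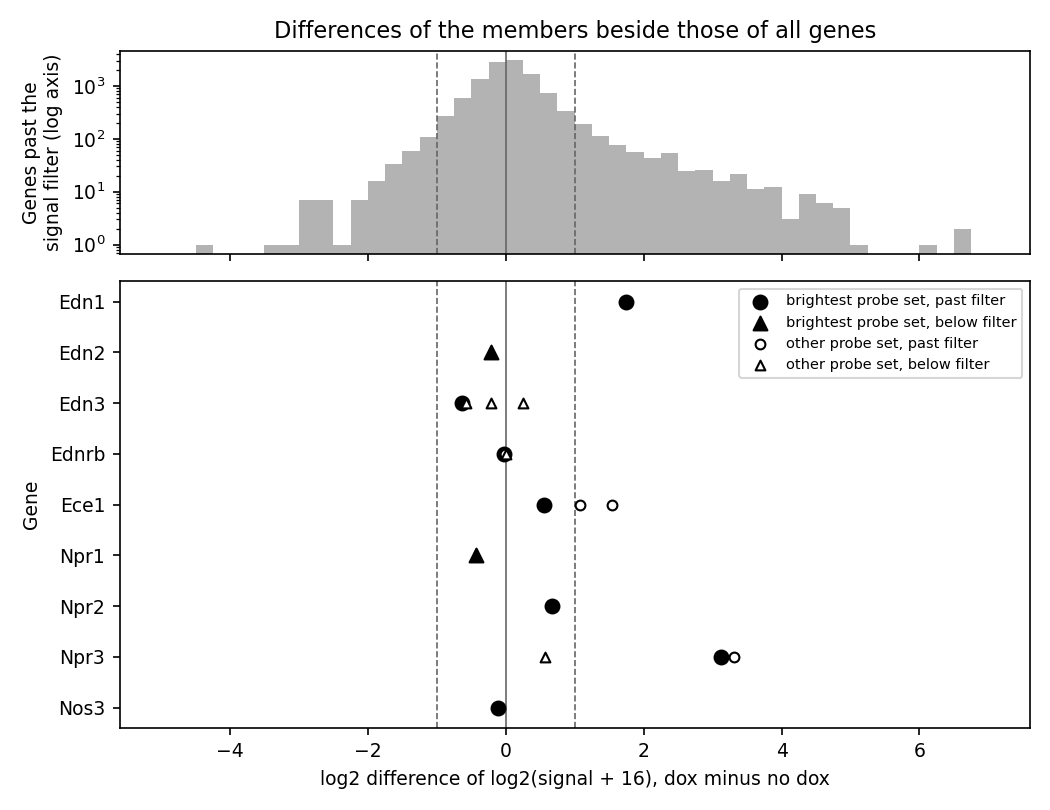
Upper panel, number of genes past the signal filter (log axis) by log2 difference, dox minus no dox; lower panel, the same difference for every probe set of the members, with filled symbols for the brightest and triangles for those below the filter, and dashed lines at 2-fold. Npr3 (3.12) and Edn1 (1.75) lie in the right tail, and the probe sets of Ece1 straddle the 2-fold line.

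The natriuretic peptide receptors differed from each other. Npr3, the clearance receptor, read 33.7 in untreated cells and 415 after dox on its brightest probe set, 8.67-fold higher (log2 difference 3.12). Only 82 genes past the filter, or 0.695%, had a larger difference. A further probe set gave 7.22 and 215 (9.95-fold), and the dimmest 21.8 and 39.8 (0.56), below both array medians. All 3 were therefore higher with dox, but by very unequal amounts.

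The size of the Npr3 fold rests on a dim untreated signal. Raising signals to the higher array median before the comparison left it 3.01-fold higher (1.59), while a pseudocount of 1 gave 3.58 and one of 64 gave 2.29 on the log2 scale. The other endocardial and flow-linked genes listed as markers were all measured and past the filter: 2 of 7 were 2-fold or more higher and 0 lower. Of all genes past the filter 5.69% were higher and 2.06% lower. The higher markers were Klf2 (573 and 1772, log2 difference 1.60) and Klf4 (2687 and 6306, 1.23), flow-responsive factors. Nfatc1, a factor of endocardium named after its values were seen, had a log2 difference of 0.17 by its brightest probe set, but its 5 probe sets were all higher and ranged up to 1.77. The remaining markers of the list hardly differed by their brightest probe sets: Plxnd1 0.24, Tmem100 0.10, Hapln1 0.04 and Cgnl1 -0.02. The summed signal of the list was 21866 without dox and 27812 with dox.

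Npr2, the receptor for C-type natriuretic peptide, had signals of 243 and 396 on its single probe set, 1.59-fold higher (log2 difference 0.67). This stayed short of 2-fold, and 9.9% of genes past the filter had a larger difference. Npr1, the receptor for the atrial and brain peptides, had signals of 75.8 and 51.8 (-0.44), both below the array medians. Nos3 was bright and even, at 4036 without dox and 3719 with dox on 1 probe set (log2 difference -0.12, or -0.30 after scaling by the array medians).

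The 7 of these genes that passed the filter had a median log2 difference of 0.56, beside 0.05 for all genes past it. Over all 9 measured it was -0.031, beside 0.04 for all genes with a named probe set. The median thus turns on whether the dim genes Edn2 and Npr1 are counted, and the genes are better read one at a time.

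**Figure D3:**
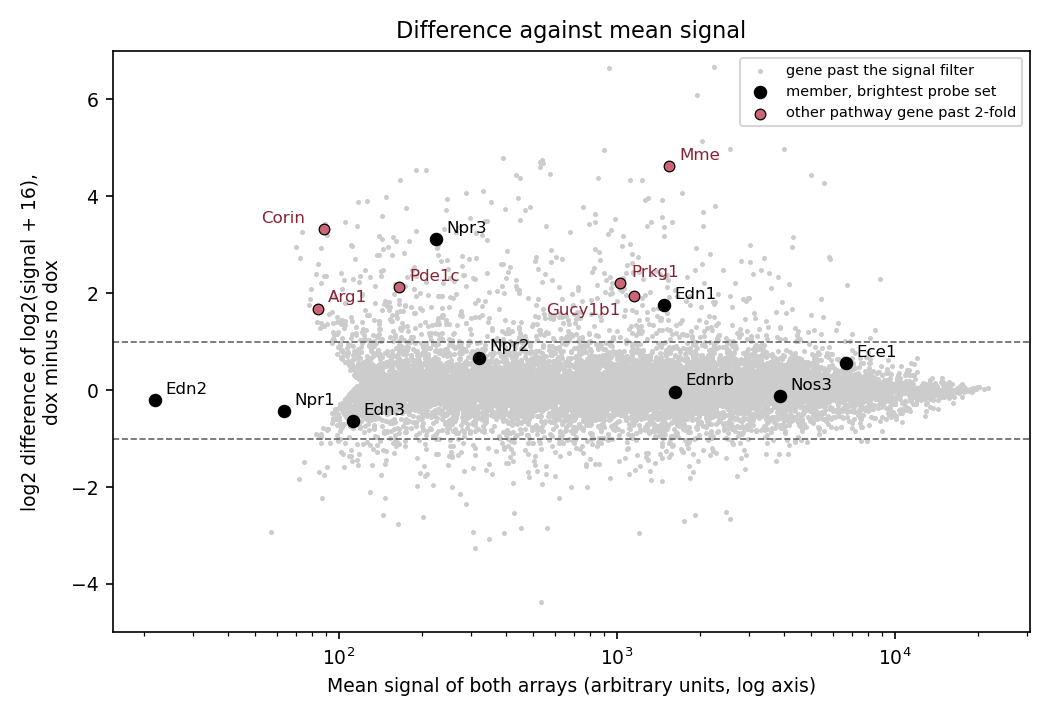
Log2 difference (dox minus no dox) against the mean signal of both arrays (log axis), 1 point per gene; grey, genes past the signal filter; black, brightest probe sets of the members; red, other pathway genes past 2-fold. Edn1, Mme, Prkg1 and Gucy1b1 lie above the 2-fold line at mean signals over 500, whereas Npr3, Pde1c, Corin and Arg1 lie in the dimmer range where grey points spread further.

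The remaining genes of these pathways were followed in 5 lists with 77 entries, of which 68 had a named probe set. Without the signal filter dox cells read 2-fold or more higher for 7 of the 68 and lower for 1, with a median log2 difference of 0.07, beside 4.77% higher and 2.04% lower of all genes. Of the 48 that passed the filter 6 were higher, 0 were lower and 42 lay within 2-fold, with a median of 0.14, beside 5.69% and 2.06% of all genes past it. Of those 6 genes 4 passed through the dox array alone, and where both arrays had to reach their median 2 of 44 were higher. Those 2 were Gucy1b1 and Prkg1, and of all 10920 genes with both arrays past the median 3.82% were higher and 1.54% lower, so this count is near the background.

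Proteases that process or destroy the peptides included the largest difference. Mme, which encodes neprilysin, a membrane protease that degrades natriuretic peptides and endothelins, had signals of 105 without dox and 2967 with dox. This is 24.6-fold higher (log2 difference 4.62), or 20.8-fold with signals raised to the array median, and its other probe set gave 29.3 and 156 (1.93). Both untreated Mme signals lie below the array median, so Mme passed the filter through the dox array alone. Corin, the protease that activates the atrial peptide, had 3.07 and 173.6 on its only probe set (3.31). With signals raised to the array median the Corin difference was 1.32-fold, so its size is not measured on the untreated side.

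Other endothelin processing genes lay within 2-fold. Furin, which makes the first cut of the endothelin precursor, had signals of 3921 and 6463 (log2 difference 0.72). Ece2, the second converting enzyme, had 1486 and 1109 (-0.42), and its other probe set also was lower (-0.15). Ide, a metalloprotease from the natriuretic peptide list, was named after its values were seen. It degrades natriuretic peptides and had signals of 2976 and 1624 (-0.87). All 5 Ide probe sets were lower, from -1.18 to -0.32, and those at -1.06, -1.02 and -1.18 passed 2-fold. The brightest one did so only after scaling by the array medians (-1.05).

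The natriuretic peptides themselves were dim on both arrays. Nppa, the atrial peptide, had signals of 8.22 without dox and 8.16 with dox, Nppb, the brain peptide, 65.5 and 92.0, and Nppc, the C-type peptide, 41.5 and 30.6. None reached the median of its array, so no difference was measurable for the ligands of Npr1, Npr2 and Npr3.

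Genes through which endothelin receptors signal, among them G proteins, phospholipases and arrestins, formed another list. Of 16 measured 15 passed the filter and all 15 lay within 2-fold, with a median log2 difference of 0.16. Of all genes past the filter 5.69% were 2-fold or more higher and 2.06% lower, so this count is near the background. The extremes, named after their values were seen, were Itpr3, a calcium release channel (166 and 333, 0.94), and Arrb2, an arrestin that desensitises receptors (1559 and 865, -0.84). The other Arrb2 probe set came to -1.17, and Arrb2 also passed 2-fold after scaling by the array medians (-1.02).

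**Figure D4:**
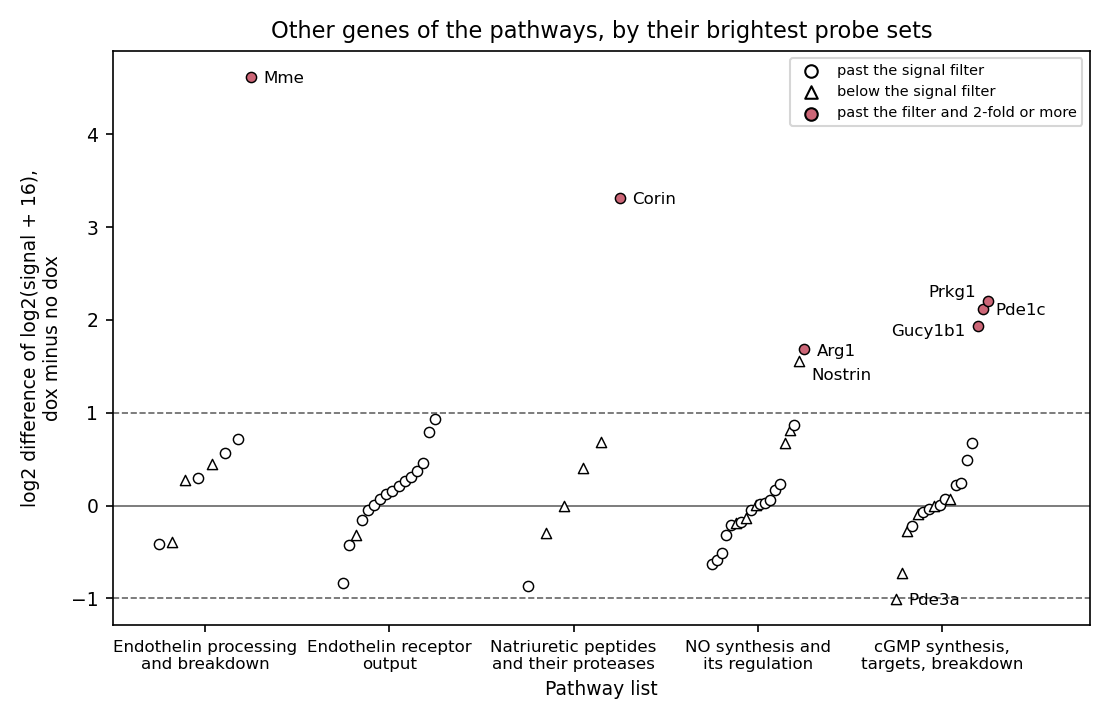
Log2 difference (dox minus no dox) of each measured gene in the 5 pathway lists by its brightest probe set, ordered within a list; triangles lie below the signal filter, red points are past it and 2-fold or more, and dashed lines mark 2-fold. The 15 genes of endothelin receptor output past the filter lie between the dashed lines, while Mme (4.62) and Corin (3.31) stand alone in their lists and Prkg1, Pde1c and Gucy1b1 lie together near 2.

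Nitric oxide synthesis and its regulators made up a further list. Of 20 measured genes 14 passed the filter, 1 was 2-fold or more higher and 13 lay within 2-fold, with a median log2 difference of -0.01. Beside 5.69% higher and 2.06% lower of all genes past the filter, this count is near the background. The higher gene was Arg1, an arginase that consumes the substrate of nitric oxide synthases, with signals of 31.6 and 137 (1.68), and a log2 difference of 0.09 with signals raised to the array median. Cav1, the caveolar protein that binds and restrains the Nos3 enzyme, had 1225 and 2250 (0.87). Of the other synthases, Nos1, the neuronal form, had 392 and 312 (-0.31), with all 4 probe sets lower, and Nos2, the inducible form, had 21.5 and 49.9, both below the medians. Nostrin, which regulates the location of Nos3, had 1 (the floor) and 33.9, also below the medians.

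Downstream of both branches, 3 of 12 cyclic GMP genes past the filter were 2-fold or more higher and 0 were lower, beside 5.69% and 2.06% of all genes past it, and 1 of the 3, Pde1c, passed through the dox array alone. Prkg1, the main cyclic GMP-dependent kinase of vessels, had signals of 357 without dox and 1705 with dox (log2 difference 2.21), and its other probe set gave 71.0 and 152 (0.94). Gucy1b1, the beta subunit of soluble guanylyl cyclase, had 467 and 1835, 3.83-fold higher (1.94), and 0.78 by its other probe set. Gucy1a1, an alpha subunit that pairs with it, had 353 and 335 (-0.07), and its 3 probe sets ranged from -0.32 to 0.27. Gucy1a2, another alpha subunit, had 284 and 334 (0.22) by its brightest probe set. The brightest probe sets of the subunits of 1 enzyme thus differed unequally between the arrays.

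Phosphodiesterases, which break down cyclic nucleotides, differed by unequal amounts. Pde1c, activated by calcium and calmodulin, had signals of 51.7 and 277 (log2 difference 2.12), yet its 6 probe sets ranged from -0.37 to 2.12, and with signals raised to the array median the log2 difference was 1.03. Pde2a, which cyclic GMP stimulates, had 5047 and 8050 (0.67), and 1 of its other probe sets gave 753 and 1676 (1.14). Pde5a, the cyclic GMP-specific enzyme, was even at 654 and 686 (0.07). Pde3b, bright on both arrays, had 3461 and 2959 (-0.225). Pde10a came to 0.24 by its brightest probe set, while others past the filter gave -0.44 and 1.88. Pde3a, which cyclic GMP inhibits, was the gene past 2-fold lower without the filter, with signals of 28.1 and 5.98, both far below the array medians.

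Markers of several cell types were read on the same arrays. Mesp1 had 2433 without dox and 10977 with dox, Kdr 10140 and 10733, and Tek 8799 and 9277. The counts below stand beside 5.69% of all genes past the filter that were 2-fold or more higher and 2.06% that were lower. Of 10 endothelial genes 9 lay within 2-fold, with summed signals of 56695 and 57804, the largest differences being Eng (1.26) and Esam (-0.35). Of 12 smooth muscle and mesenchyme genes 11 passed the filter and 9 of these were 2-fold or more higher, led by Tagln (5.14) and Lum (4.61), with summed signals of 5423 and 41079 and Cnn1 at the floor without dox. Among the higher ones Tagln, Lum, Cnn1 and Col1a1 passed the filter through the dox array alone. Of 12 cardiomyocyte genes 7 passed and 6 were higher, led by Myl4 (3.87) and Tnnt2 (3.43), with sums of 2124 and 7715. Myl4, Myl7 and Myh7 among them also passed through the dox array alone. Of 11 blood genes 10 were measured and 9 passed, and 4 were 2-fold or more lower, led by Hbb-bh1 (-2.58) and Gfi1b (-1.99), with sums of 14189 and 8437. Gfi1b and Hba-x among the lower ones passed through the untreated array alone. For markers that passed through a single array, the filter itself selects for a difference. Of 6 pluripotency genes 2 passed the filter, both within 2-fold, and the sums were 639 and 677. Tdgf1 lay at the floor with dox, and the largest differences were in Nanog (0.80, below the filter) and Dppa5a (0.24). All 9 measured housekeeping genes lay within 2-fold, the furthest being Gusb (0.61) and Polr2a (0.38). Prkg1 and Gucy1b1 are also known from smooth muscle and Corin from cardiac muscle, and the part of such cells in the differences of the members and pathway genes was not tested. In sorted bulk RNA, fewer cells of a type and less RNA per cell cannot be told apart.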

How the data were processed

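The deposited values are linear signal intensities, as their range shows (lowest 1, highest 22539), and cover 45037 probe sets on both arrays. The authors' summarisation and scaling are not given in the sources used here, and no detection calls or probe values were used. Probe sets with 1 gene symbol in the platform annotation (34945) were kept, and 932 with several symbols were left unnamed. Of the kept ones, 34741 matched RefSeq (GRCm38.p6) by Entrez number, which changed 0 symbols. Each gene was read by its brightest probe set on log2(signal + 16), with a fixed size of 2-fold. Calculations used Python 3.11.15, numpy 2.4.6 and pandas 2.3.3, and were checked on simulated data. Named in the text are all members, pathway genes past 2-fold, Nppa, Nppb, Nppc, Nos1, Nos2, Ece2, Gucy1a1, Gucy1b1, Mesp1, Kdr, Tek and the 2 most different genes of each marker list. Any other gene was picked for mention with its values in view. The members, lists, motifs and size were chosen with earlier results of these data known. Alternatives covered pseudocount, scaling, choice of probe set and filter, and raising signals to the array median was added after seeing the data.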

Additional observations from a re-analysis of the deposited data

How the results depend on the processing

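With 1 array per condition no array could be left out. Of 63 values of single members under alternative pseudocounts, scalings and probe set choices, 58 moved by less than the SD between probe sets, 5 by more and 0 reversed a difference past 2-fold. Some of the 58 could not move. Edn1, Edn2, Npr1, Npr2 and Nos3 have 1 probe set each, and raising signals leaves members bright on both arrays as they were. The 5 that moved by more were Npr3 with a pseudocount of 64 (2.29), as a mean over probe sets (2.33) and with signals raised to the array median (1.59), Ece1 as a mean over probe sets (1.06), and Edn3 with signals raised (-0.12). The number of members 2-fold or more higher was 1, in place of 2, with a filter on both arrays or at the 75th percentile, since Npr3 no longer passed, and 3 with a mean over probe sets, since Ece1 reached 2-fold. The median of the members was 0.38 after scaling by the array medians, 0.26 with the filter at the 75th percentile and -0.031 with no filter, against 0.56. Pathway genes 2-fold or more higher numbered 2 with a filter on both arrays and 3 at the 75th percentile, against 6. Those 2-fold or more lower numbered 2 (Arrb2 and Ide) after scaling by the array medians and 1 with a mean over probe sets, without probe sets of suffix _x_at or _s_at, or with no filter, against 0. Fewer genes enter under stricter filters. Signals near or below the array median limit Edn2, Edn3, Npr1, Npr3, Pde1c, Corin and Arg1, and the untreated side of Mme.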
